A study of Mus musculus with 6 samples.

Results

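The insulin-like growth factor (IGF) axis was followed through 10 genes: the ligands Igf1 and Igf2, the receptors Igf1r and Igf2r, and the IGF binding protein genes Igfbp2 to Igfbp7. They were chosen by name, as the array features that the platform annotation gives 1 of these symbols, and each gene had a single such feature, out of 30142 genes measured. RNA came from cancer stem cells sorted from squamous cell carcinomas of mouse skin, 3 samples from wild-type mice (WT) and 3 from mice homozygous for loss of the Wnt antagonist gene Sfrp1 (Sfrp1-/-, here Sfrp1_KO), on 1 Affymetrix MTA 1.0 array each. All mice of both genotypes had received the carcinogen DMBA on 3 days (PD-23, 25 and 27 in the labels' notation) and then the tumour promoter TPA 2 times a week for 30 to 40 weeks, so the treatment is shared and no untreated skin was compared. The sorted cells were Lin-, Epcam+, α6-integrin+ and CD34+. Strain, age at collection, the deleted part of Sfrp1, and whether a sample is 1 tumour or a pool are not stated in any source used here. The p-values therefore reflect how far these particular samples spread, and some of that spread may be technical.

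IGF1 and IGF2 are secreted peptides that activate the receptor tyrosine kinase IGF1R, which signals to growth and survival through insulin receptor substrates, PI3K and AKT. IGF2R, the cation-independent mannose 6-phosphate receptor, removes IGF2 from the cell surface and carries lysosomal enzymes, and has no kinase. The binding proteins hold IGFs in the extracellular space, prolong or block their action, and some act without IGF; in skin, IGFs come largely from the dermis, while keratinocytes carry the receptor and secrete binding proteins.

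Values are deposited log2 signals, and a difference is Sfrp1_KO minus WT in the same units with its moderated standard error (SE). The scale reaches 19.93, beyond the 16 log2 units of a 16-bit scanner, so differences are not given as folds. The background level of an array is the highest of its 23 background probe sets and lay between 4.82 and 5.10. Sfrp1 was at 5.71, 5.48 and 6.07 in WT and at 5.09, 5.11 and 5.15 in Sfrp1_KO, lower in each knockout array but short of the threshold (difference -0.64, SE 0.15, limma adjusted p = 0.0969). The sort markers differed among themselves. Epcam was at 4.89 to 5.22 in Sfrp1_KO, around background, against 6.65 to 8.69 in WT. The knockout arrays thus carry little Epcam RNA signal, although the sorted cells were Epcam+. Arrays measure RNA, and surface protein was not measured here. Itga6, the α6-integrin gene, was lower too but well above background (7.47 to 7.82 against 9.00 to 10.22), and Cd34 was higher on each knockout array (10.19 to 11.55 against 9.26 to 9.54; limma adjusted p = 0.0714). The number of arrays limits every value.

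WT replicate 3 stood apart in markers of fibroblasts and endothelial cells. Of 15 fibroblast markers 13 had their highest WT value on that array, as did 12 of 12 endothelial markers. Of these endothelial markers 8 lay under background on all 6 arrays. Pericyte and smooth muscle markers did not follow: 4 of 12 were highest on WT replicate 3, beside 5 on WT replicate 2 and 3 on WT replicate 1. WT replicate 3 also held the highest WT value of 4 of the 10 IGF axis genes (Igf1, Igfbp2, Igfbp5 and Igfbp6). The share of all genes highest on that WT array was not counted. The median signal of WT replicate 3 was 4.45, beside 4.32 and 4.44 on WT replicates 1 and 2. Decorin (Dcn), a fibroblast proteoglycan, was at 6.54, 6.58 and 10.56 in WT and at 10.18, 11.15 and 10.11 in Sfrp1_KO. Mean fibroblast marker signal was 5.45 to 6.50 in WT and 5.57 to 5.94 in Sfrp1_KO, with 1 marker called higher and 1 lower. The part of these cells in the values of Igf1, Igfbp2, Igfbp5 and Igfbp6 was not tested.

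Of the 10 genes 2 rose in Sfrp1_KO, Igfbp4 and Igfbp6, none fell and 8 did not pass (limma, adjusted p under 0.05 over all 30142 genes). Over all genes 3.28% passed, 1.83% higher and 1.45% lower. Not 1 of the 10 was called lower, while 6 had an unadjusted p under 0.05, among them Igfbp3 and Igfbp7 in the lower direction; without WT replicate 1, Igfbp7 was called lower. In 7 of the 10 the arrays of the genotypes did not overlap, where 19.9% of all genes did so. Igfbp5, 1 of these 7, had a gap of only 0.02 between genotypes and was above background on 1 array only. Of the 8687 genes above background on all 6 arrays 6.12% passed and 29.3% did not overlap, and 6 of the 10 belong to these: Igf1r, Igf2r, Igfbp3, Igfbp4, Igfbp6 and Igfbp7. All of those 6 separated the genotypes. The median difference of the 10 was -0.07, beside -0.01 over all genes, with a range from -2.86 to 3.15. The binding proteins thus did not move as a block. In absolute size, 0.302% of all genes differed by more than Igfbp6, 0.362% by more than Igfbp4 and 0.382% by more than Igfbp7. For each of the 7 genes without overlap an exact permutation test (two-sided) returned p = 0.1, the lowest value possible with 3 arrays a genotype.

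**Figure D1:**
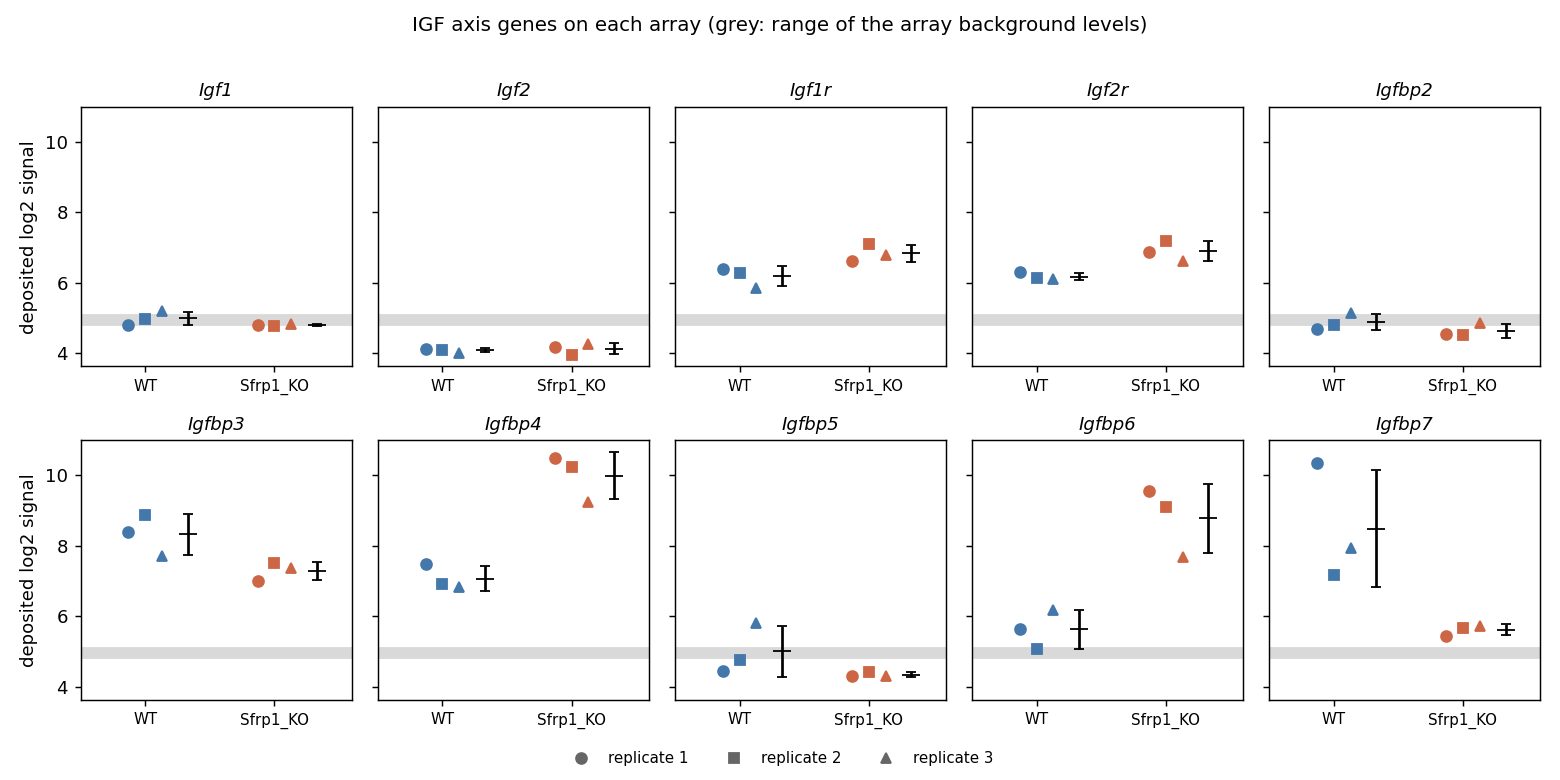
Deposited log2 signal (vertical axis) of the 10 IGF axis genes on each array, WT in blue and Sfrp1_KO in orange, with the mean and SD (n = 3) beside the points and the range of the array background levels in grey. Igfbp4 and Igfbp6 stand higher on each Sfrp1_KO array, Igfbp7 and Igfbp3 lower, and Igf2 lies under background on all 6.

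The binding protein genes that moved most are shown with the 250 bases before their annotated start, because Igfbp4 and Igfbp6 rose together while Igfbp7 stood lower. The sequences are those of RefSeq on GRCm38.p6, 5′ to 3′ on the gene's strand, and the table held windows for all 10 genes. Capitals mark matches on either strand to TATAAA, the letters of a TATA box, or to GGGCGG, those of a GC box. The Igfbp4 window is chr11:99040994-99041243 (+), that of Igfbp6 chr15:102143936-102144185 (+) and that of Igfbp7 chr5:77408046-77408295 (-).
Igfbp4: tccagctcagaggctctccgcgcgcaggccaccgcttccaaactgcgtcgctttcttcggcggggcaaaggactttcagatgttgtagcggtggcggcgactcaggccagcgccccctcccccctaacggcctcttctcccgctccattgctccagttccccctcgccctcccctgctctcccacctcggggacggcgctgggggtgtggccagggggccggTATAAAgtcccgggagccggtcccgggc
Igfbp6: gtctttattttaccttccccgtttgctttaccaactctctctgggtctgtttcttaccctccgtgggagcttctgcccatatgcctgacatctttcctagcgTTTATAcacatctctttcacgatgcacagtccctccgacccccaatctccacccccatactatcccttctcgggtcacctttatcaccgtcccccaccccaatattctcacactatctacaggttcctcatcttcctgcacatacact
Igfbp7: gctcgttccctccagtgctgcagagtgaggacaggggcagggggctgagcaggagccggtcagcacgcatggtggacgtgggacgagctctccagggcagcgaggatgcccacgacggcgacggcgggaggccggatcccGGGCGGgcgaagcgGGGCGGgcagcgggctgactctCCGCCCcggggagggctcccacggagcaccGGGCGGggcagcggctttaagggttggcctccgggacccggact

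The windows of the pair that rose differ in base composition. That of Igfbp4 is 69.2% G or C with 22 CpG and holds 1 TATAAA, its first base 28 bases before the start. That of Igfbp6 is 49.6% G or C with 7 CpG, near the medians of all 32851 windows (52.4% and 6), and holds 1 match on the other strand, 148 bases before the start. The Igfbp7 window is 74.0% G or C with 26 CpG and holds 4 GC boxes and no TATAAA. Over all windows 12.4% hold TATAAA and 32.7% hold GGGCGG, on either strand. The letters of TCF/LEF sites, where the Wnt effector beta-catenin acts, were searched as CTTTGAA, then with the last letter changed as CTTTGAT, and with the last pair changed as CTTTGTT and in the same way CTTTGTA, on either strand. Any of these stands in 14.8% of all windows and, among the 10 genes, in that of Igf1 alone, with 2 matches. A match is a description of letters and not a binding site.

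The ligand genes gave little or no signal above background. Igf2, the fetal growth factor expressed from the paternal allele, was at 4.14, 4.11 and 4.02 in WT and at 4.17, 3.97 and 4.27 in Sfrp1_KO, under the background level on all 6 arrays (difference 0.05, SE 0.10). Igf1, the growth hormone-dependent ligand, was at 4.82, 4.98 and 5.19 in WT and at 4.80, 4.78 and 4.83 in Sfrp1_KO. It lay above background on 2 WT arrays and on no Sfrp1_KO array. The Igf1 values overlapped, as 1 WT array lay within the knockout range, and the difference of -0.19 (SE 0.11, 95% CI -0.46 to 0.071) did not pass.

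Both receptor genes stood higher on each Sfrp1_KO array, by less than 1 log2 unit, and neither passed. Igf1r, the signalling receptor, was at 6.40, 6.29 and 5.86 in WT and at 6.62, 7.11 and 6.78 in Sfrp1_KO. The highest WT array lay 0.22 under the lowest knockout array, and the difference was 0.66 (SE 0.19, 95% CI 0.21 to 1.10, limma adjusted p = 0.151). Igf2r, the mannose 6-phosphate and IGF2 receptor, was at 6.30, 6.14 and 6.10 in WT and at 6.88, 7.19 and 6.62 in Sfrp1_KO. The Igf2r difference was 0.72 (SE 0.15, 95% CI 0.35 to 1.08, limma adjusted p = 0.0684), close to the threshold. Igf2r passed without Sfrp1_KO replicate 3 (0.85, limma adjusted p = 0.0463), with dim genes left out (0.0484), after a further quantile normalization (0.0122) and with array weights (0.0351).

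Igfbp4, a binding protein that inhibits IGF action and is cleaved by the protease PAPP-A, rose. Its signal was 7.47, 6.91 and 6.83 in WT and 10.50, 10.22 and 9.24 in Sfrp1_KO. The lowest knockout array lay 1.77 above the highest WT array. Means were 7.07 ± 0.35 and 9.99 ± 0.66 (SD, n = 3), and the difference was 2.92 (SE 0.35, 95% CI 2.08 to 3.75, limma adjusted p = 0.0108). The call ended without Sfrp1_KO replicate 2 (2.80, limma adjusted p = 0.0653) and held without any other single array.

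Igfbp6, which binds IGF2 in preference to IGF1, rose as well. It was at 5.65, 5.07 and 6.17 in WT, a little above background, and at 9.56, 9.10 and 7.68 in Sfrp1_KO. The groups lay 1.51 apart, and Sfrp1_KO replicate 3 was the lowest knockout array for Igfbp6, as for Igfbp4. The difference was 3.15 (SE 0.52, 95% CI 1.91 to 4.39, limma adjusted p = 0.0296). The Igfbp6 call rests on the full set of arrays: it ended without any 1 WT array (limma adjusted p = 0.0787, 0.0817 and 0.0615 without replicates 1, 2 and 3), without Sfrp1_KO replicate 1 (0.0881) or without Sfrp1_KO replicate 2 (0.132), and held without Sfrp1_KO replicate 3 (3.70, limma adjusted p = 0.012). The difference stayed between 2.76 and 3.70 in those fits.

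Igfbp7, a low-affinity binding protein found in vessel walls and stroma, had a difference nearly as large in the other direction but did not pass. It was at 10.34, 7.17 and 7.93 in WT and at 5.45, 5.68 and 5.73 in Sfrp1_KO, so each knockout array lay at least 1.43 under each WT array. WT replicate 1 was far above the other WT arrays, the WT values spanned 3.18, and 99.8% of all genes had a WT SD no larger than that of Igfbp7 (1.66). The knockout values spanned 0.28. The difference was -2.86 (SE 0.76, 95% CI -4.69 to -1.03, limma adjusted p = 0.128). Without WT replicate 1 it was smaller and passed (-1.93, SE 0.24, limma adjusted p = 0.025).

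Igfbp3, the main carrier of IGFs in blood and a product of keratinocytes, was at 8.39, 8.87 and 7.72 in WT and at 7.01, 7.50 and 7.38 in Sfrp1_KO. The groups lay 0.21 apart, and the difference of -1.03 (SE 0.30, 95% CI -1.74 to -0.32) did not pass (limma adjusted p = 0.16). Leaving out WT replicate 3 gave the lowest adjusted p of any single array left out (-1.33, limma adjusted p = 0.052).

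Igfbp5, a matrix-bound binding protein of stromal and muscle cells, was above background on 1 array only. It was at 4.44, 4.77 and 5.81 in WT, the last being that array, and at 4.30, 4.42 and 4.30 in Sfrp1_KO. The difference of -0.67 (SE 0.33, limma adjusted p = 0.458) was -0.26 without WT replicate 3. Igfbp2, which carries an integrin-binding motif, was likewise above background on WT replicate 3 alone, at 4.70, 4.81 and 5.14 in WT and 4.54, 4.52 and 4.87 in Sfrp1_KO. Its values overlapped (-0.24, SE 0.15, limma adjusted p = 0.601).

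**Figure D2:**
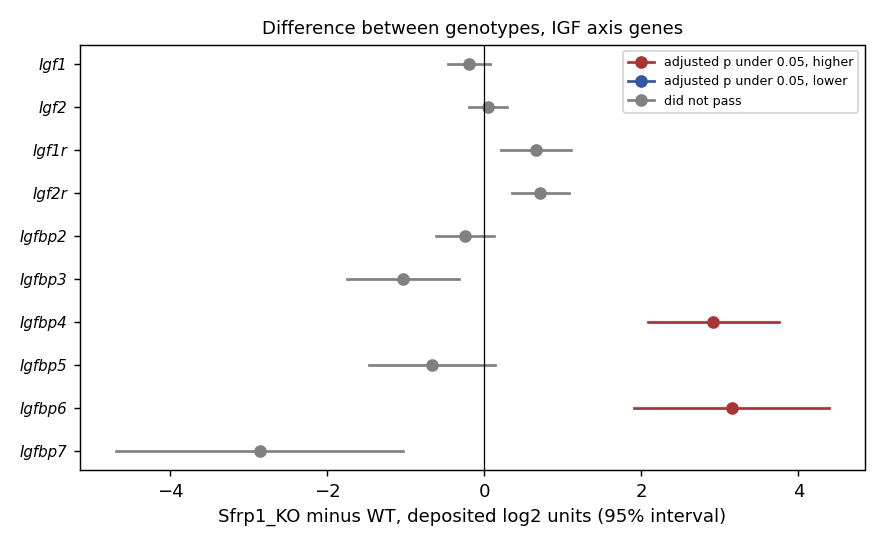
Difference Sfrp1_KO minus WT in deposited log2 units (horizontal axis; points) with its unadjusted 95% interval (lines) for the 10 IGF axis genes; red marks adjusted p under 0.05. Igfbp4 and Igfbp6 passed, and the intervals of Igf1r, Igf2r, Igfbp3 and Igfbp7 exclude 0 although their adjusted p did not.

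Of 15 basal keratinocyte markers 12 fell and none rose, and their mean signal went from 9.19 to 9.74 in WT to 5.70 to 5.80 in Sfrp1_KO. Leukocyte and macrophage markers had means of 4.43 to 4.50 in WT and 4.69 to 5.29 in Sfrp1_KO. None of 13 passed, and 8 were higher without overlap, beside 2743 of all 30142 genes. Under background on all 6 arrays lay 6 of the 13, with Itgam and Csf1r of those 8 among them. Among knockout arrays the mean of the leukocyte and macrophage markers was lowest on Sfrp1_KO replicate 3, where Igfbp4 and Igfbp6 were lowest too. The means of basal keratinocyte, fibroblast, endothelial, and pericyte and smooth muscle markers were also lowest on that knockout array. Those of melanocyte, Schwann cell and myoblast markers were highest on it. Ptprc, the defining leukocyte antigen CD45, lay under background on all 6 arrays. Endothelial marker means were 4.27 to 4.75 and 4.42 to 4.60, with 8 of 12 under background on all 6 arrays, and those of pericytes and smooth muscle 4.91 to 4.98 and 4.90 to 5.07, where 1 of 12 passed: Pdgfrb, a receptor of mesenchymal cells, at 5.11, 4.80 and 5.25 against 8.91, 9.47 and 7.93. The part of any of these cell types in the IGF axis values was not tested, and in sorted bulk RNA fewer cells of a type and less RNA per cell cannot be told apart.

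Around the 10 genes, 146 further genes of the pathway were listed by role, and 127 of them had a feature with a single symbol. Of these 8 rose, 3 fell and 116 did not pass, with a median difference of 0.04, and 36 lay under background on all 6 arrays. Over all genes 1.83% rose and 1.45% fell, as given above, and 6.12% of the 8687 genes above background on all 6 arrays passed. In the pathway lists 75 of the 127 genes lay above background on all 6 arrays. The lists were chosen with earlier results of these data known.

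Receptor-proximal signalling genes gave no call. None of 14 insulin and IGF receptor adaptors passed (median -0.03), the smallest p being those of the docking protein gene Gab1 (5.49, 5.31 and 5.47 against 5.03, 5.07 and 5.19) and of the phosphatase gene Ptpn1 (5.46, 5.29 and 5.28 against 5.01, 5.03 and 5.12). None of 25 PI3K, AKT and mTOR genes passed (median 0.06). Pik3r1, the regulatory subunit of PI3K, was at 6.53, 6.49 and 6.96 in WT and 7.23, 7.58 and 7.64 in Sfrp1_KO (0.82, SE 0.17, limma adjusted p = 0.0643), and passed without WT replicate 3 (0.0485). Inppl1, the lipid phosphatase SHIP2, differed by 0.92 (SE 0.23, limma adjusted p = 0.111). The substrate gene Irs1 was at 7.69, 5.39 and 4.96 in WT and 6.49, 6.34 and 6.01 in Sfrp1_KO, and Irs2 at 9.46, 7.55 and 7.26 and 8.03, 8.52 and 8.16. Both were highest on WT replicate 1, the array on which Igfbp7 was highest; they lie outside the naming rule and were picked with their values in view.

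Of 20 FOXO factors and FOXO-induced genes, which AKT signalling holds in check, 2 rose and none fell (median 0.04). Sesn3, an inhibitor of mTORC1, was at 6.15, 5.64 and 6.24 in WT and 8.25, 9.41 and 8.48 in Sfrp1_KO (2.70, SE 0.32, limma adjusted p = 0.0111). Averaged over all features of the gene, the Sesn3 difference was 1.65 and passed (limma adjusted p = 0.00965). The stress gene Gadd45a was at 4.97, 4.99 and 4.84 and at 5.62, 5.60 and 5.65 (0.69, SE 0.078, limma adjusted p = 0.00963), and lost its call without Sfrp1_KO replicate 1 or 2 (0.0533 and 0.0524). The factors Foxo1, Foxo3 and Foxo4 differed by -0.06, -0.03 and 0.02.

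The growth hormone input, which drives Igf1 in liver, held 1 rise and 1 fall among 9 genes. Ghr, the growth hormone receptor, rose from 5.86, 5.74 and 6.15 to 7.83, 8.00 and 7.80 (1.96, SE 0.13, limma adjusted p = 0.0019), and kept its call without any 1 array. Cish, a feedback inhibitor, passed as lower, but all 6 arrays lay under background, and the call ended without any 1 array other than WT replicate 1 (limma adjusted p up to 0.0815).

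Of 15 IGFBP-domain and carrier genes Esm1 rose, none fell, and 9 lay under background throughout (median 0.04). Esm1 encodes endocan, a secreted proteoglycan with an IGFBP domain, and stood at 5.15, 5.20 and 5.26 in WT and at 8.04, 8.00 and 7.96 in Sfrp1_KO (2.80, SE 0.074, limma adjusted p = 0.000127), with a call that held without any 1 array. Ccn1, a matrix protein with an IGFBP domain, was at 9.60, 7.86 and 9.54 against 11.14, 11.56 and 10.29 and did not pass (1.99, SE 0.54, limma adjusted p = 0.135). None of 8 IGFBP proteases and inhibitors passed (median 0); Adam9 differed by 0.64 (SE 0.14, limma adjusted p = 0.0777), and Tmprss2, next by p, lay under background throughout. Pappa, whose product cleaves IGFBP4, was at 4.38, 4.86 and 5.20 in WT and 4.31, 4.39 and 4.49 in Sfrp1_KO, above background on WT replicate 3 alone.

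Among 13 surface and matrix partners 2 rose and 2 fell (median 0.04). Fn1, fibronectin, which binds several IGFBPs, rose from 8.08, 9.35 and 8.00 to 14.58, 14.56 and 12.75 (5.49, SE 0.59). Lrp1, an endocytic receptor for IGFBP3, rose from 8.16, 7.93 and 7.98 to 10.15, 10.32 and 9.17 (1.86, SE 0.30, limma adjusted p = 0.0274). Its call held only without Sfrp1_KO replicate 3 among single arrays left out, ending without WT replicate 1, 2 or 3 (0.064, 0.0822 and 0.0902) or Sfrp1_KO replicate 1 or 2 (0.106 and 0.102). The receptor phosphatase gene Ptprz1 fell from 7.19, 6.72 and 7.92 to background, by at least 2.21 (the WT mean minus the mean background level of the knockout arrays). The retinoid receptor gene Rxra, a nuclear partner of IGFBP3, fell by 0.46 (SE 0.088, limma adjusted p = 0.0496), a call lost without any 1 array (0.0635 to 0.197).

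Of 18 mannose 6-phosphate sorting genes and cargo enzymes of IGF2R 2 rose, none fell and the median was 0.29. Ctsl, the lysosomal protease cathepsin L, was at 8.76, 7.86 and 6.58 in WT and 10.38, 11.18 and 11.16 in Sfrp1_KO (3.18, SE 0.54, limma adjusted p = 0.0341). The thioesterase gene Ppt1 differed by 1.00 (SE 0.16, limma adjusted p = 0.030). The Ctsl call ended when WT replicate 2 was left out (0.0871) and when Sfrp1_KO replicate 1, 2 or 3 was (0.0837, 0.148 and 0.108), and that of Ppt1 without WT replicate 1, 2 or 3 (0.050, 0.0603 and 0.0683) or Sfrp1_KO replicate 1 or 2 (0.113 and 0.118). M6pr, the other mannose 6-phosphate receptor, differed by -0.14 (SE 0.12).

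Of 12 listed genes for binding and regulation of IGF2 mRNA or its imprinted control 7 had a feature with a single symbol, none passed (median 0.03) and 5 lay under background throughout. The chromatin protein gene Hmga2 was at 7.24, 7.27 and 6.97 and at 7.61, 7.94 and 7.58 (0.55, SE 0.14, limma adjusted p = 0.106), and Airn, antisense to Igf2r, lay under background on all 6 arrays, and no source used here says whether the features keep strands apart.

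**Figure D3:**
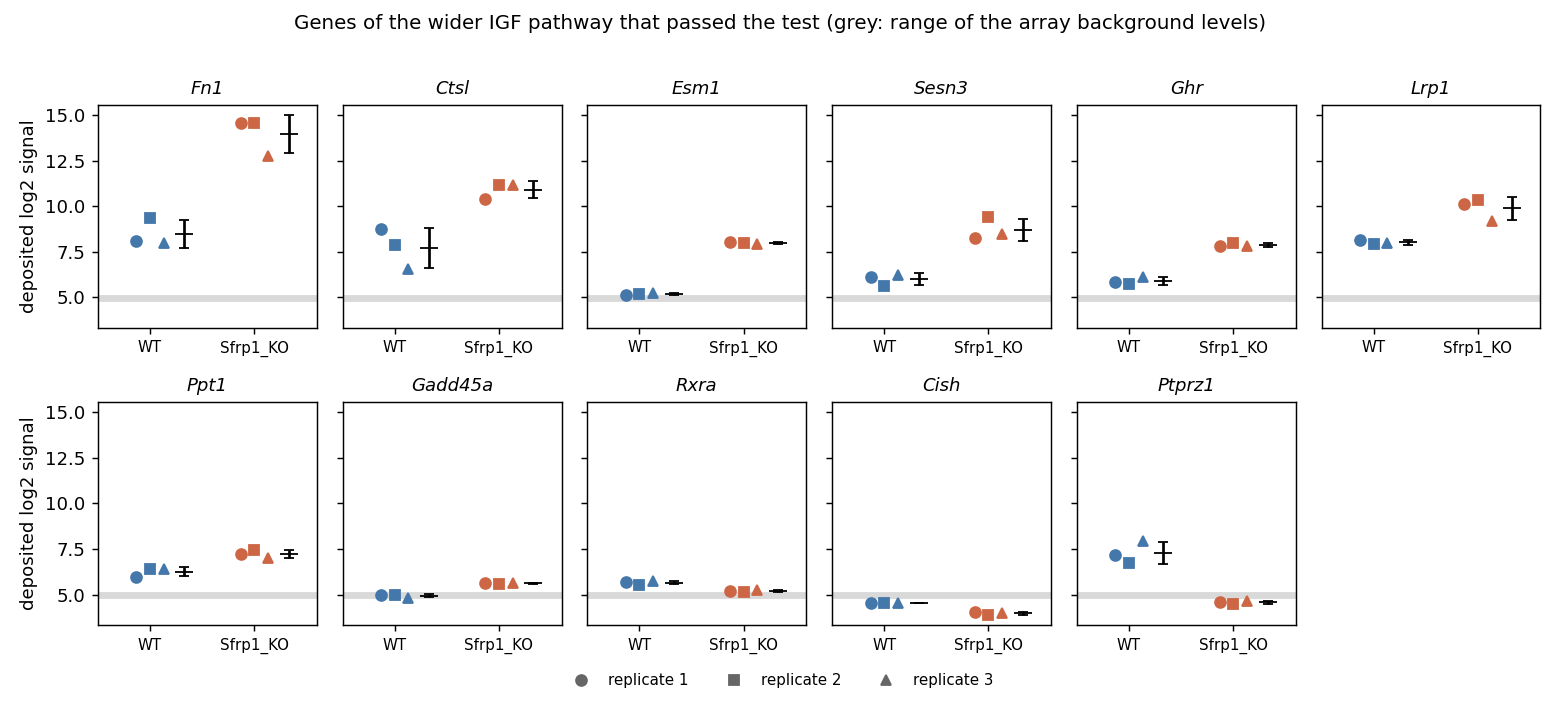
Deposited log2 signal (vertical axis) on each array of the 11 genes of the wider pathway that passed, ordered by difference from Fn1 to Ptprz1, with mean and SD (n = 3) and the background range in grey. The Esm1 arrays of each genotype nearly coincide, and Cish is under background on all 6.

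The genes whose values over the 6 arrays, each centred on its own mean, lay nearest to the pair that rose were sought over all named genes, by root mean square distance. For Igfbp6 these were Cd248, which encodes the mesenchymal glycoprotein endosialin (0.18 log2 units), Cavin3, a caveolar coat gene (0.30), and the galectin-3 binding protein gene Lgals3bp (0.31). For Igfbp4 they were Scpep1, a serine carboxypeptidase gene (0.20), Fam102b (0.24) and again Cavin3 (0.24). Cd248 was at 6.26, 5.82 and 6.53 in WT and 9.77, 9.50 and 8.31 in Sfrp1_KO. Such distances are dominated by the difference between genotypes and by the lower values of Sfrp1_KO replicate 3, and describe 6 arrays only.

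**Figure D4:**
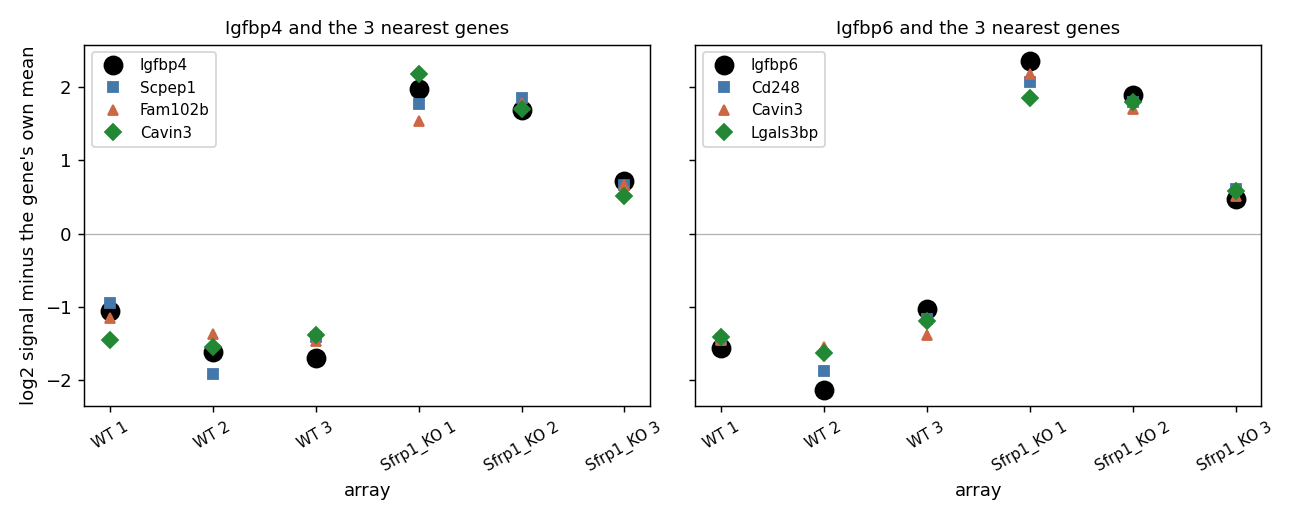
Log2 signal minus each gene's own mean (vertical axis) over the 6 arrays for Igfbp4 (left) and Igfbp6 (right), in black, with the 3 genes nearest to each. All lie below 0 on the WT arrays and above 0 on the Sfrp1_KO arrays, lowest among the latter on replicate 3.

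Chromosomal neighbours of the 10 genes differed in their directions. Neighbours were the 3 nearest named genes on either side of a member. Genes without a single-symbol feature, such as H19 near Igf2, were skipped. Among the 54 neighbours outside the 10 genes, 3 rose and 1 fell (7.4%, beside 3.28% of all genes). Of the same 54, 18 separated the genotypes (33.3%, beside 19.9%). Of the 6 neighbours of Igfbp6, 4 were higher on each knockout array, as Igfbp6 was, and of these Tns2 alone passed; Eif4b differed by 0.59, Csad by 0.61 and Spryd3 by 0.16. Of the 6 neighbours of Igfbp4, 2 were higher and 1 lower without overlap. Igfbp2 and Igfbp5 stand side by side on chromosome 1, and Igfbp1 and Igfbp3 on chromosome 11; Igfbp1 lay under background throughout. Next to Igfbp4 on chromosome 11, Tns4 fell by 4.64 (SE 0.41, limma adjusted p = 0.00478) where Igfbp4 rose, and on the other side the topoisomerase gene Top2a did not pass (0.75, SE 0.15, limma adjusted p = 0.0578).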

How the data were processed

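Expression was measured in 3 WT and 3 Sfrp1_KO samples, grouped by their titles. The deposited values are log2 signals; the submitters' processing notes name RMA and Affymetrix Expression Console as the authors' tools. No source used here gives versions, annotation or build, and scanner files were not used here. Of 65956 transcript clusters 30604 had 1 platform symbol, 2146 several and 33206 none listed. Symbols were updated through a RefSeq table (GRCm38.p6; 22818 matched, 827 changed), and the brightest feature of each gene was kept. Genotypes were compared with limma 3.58.1 (R 4.3.3; lmFit, eBayes, two-sided, Benjamini-Hochberg over 30142 genes, no filter). On data simulated for the genotype comparison (30142 genes) the fit recovered 33, 39, 47 and 46 of 50 genes changed by 1, 2, 3 and 4 log2 units, with 9 false calls among 174. Named were all 10 IGF axis genes and, of each pathway list, up to 4 called genes by size or else the 2 with the smallest p; Irs1, Irs2, Foxo1, Foxo3, Foxo4, Pappa, M6pr and the neighbours were named outside that rule after their values were seen. The members and lists were chosen with earlier results of these data known. Genes with near-identical copies or overlapping neighbours can share probe signal. Protein sequences were not used here. Alternatives are given in the closing section.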

Additional observations from a re-analysis of the deposited data

How the results depend on the processing

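Of 10 differences between genotypes under 13 alternatives each (fewer for 4 dim genes), 113 of 126 values kept their direction and side of the threshold. With each array left out in turn, Igfbp4 ranged from 2.66 to 3.29, Igfbp6 from 2.76 to 3.70, Igfbp7 from -3.52 to -1.93, Igf2r from 0.57 to 0.85 and Igf2, under background, from -0.022 to 0.13, the 1 change of direction. Members called higher then ranged from 0 to 3 and lower from 0 to 1, pathway genes from 4 to 12 higher and 1 to 2 lower, and all genes from 191 to 487 higher and 100 to 407 lower. Igf2r passed with dim genes left out (0.72), after a further quantile normalization (0.74) and with array weights (0.77). Pathway genes called higher were 16 and 14 in the last 2 of these settings, and all genes called higher 892 after quantile normalization. A minimum difference of 1 log2 unit left 1 pathway gene lower and 295 and 244 genes in all. No source used here says that same-numbered samples are paired. Correlations of their deviations were 0.18, -0.12 and 0.17, and 3 arrays a genotype are too few to settle this. With the replicate block Igfbp6 kept its difference of 3.15 but not its call (limma adjusted p = 0.0915). This left 1 member and 5 pathway genes called higher and 297 and 238 genes in all. The 5 were not all called in the main fit: Lrp1, Sesn3, Gadd45a, Ctsl and Ppt1 lost their calls, while Inppl1 passed (limma adjusted p = 0.0396). Igfbp4 passed. Of the other 29 named genes 11 lost their call with the block, Sesn3 among them (limma adjusted p = 0.0556). Also among the 29, Ccn1, Adam9, Tmprss2, Gab1, Ptpn1, Pik3r1, Inppl1, Hmga2 and Airn had no call to lose. The fits with an array left out had fewer residual degrees of freedom than the main fit. The fit with the block, which left out no array, had fewer still. The part of this in the calls lost was not tested. Of the other 29 named genes, with those never called included, 305 of 374 values kept their direction and side of the threshold. The simulation drew changed genes above the median signal, so recovery at the signal of Igf2, which lies lower, was not tested. It gave each gene the same spread in both genotypes and no shift shared by the genes of an array. Recovery of genes with unequal spreads, such as Igfbp7 (SD 1.66 in WT and 0.15 in Sfrp1_KO), was therefore not tested either.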

Other observations

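The 4 tensin genes encode focal adhesion adaptors that link integrins to actin. Each lies within 3 measured named genes of an IGF binding protein gene. Tns3 lies beside Igfbp3 and Tns4 beside Igfbp4 on chromosome 11, Tns1 near Igfbp5 on chromosome 1, and Tns2 near Igfbp6 on chromosome 15. Their values went in different directions, and this set was singled out after the values were seen. Tns2 rose near Igfbp6, which rose too: it was at 4.74, 5.14 and 5.00 in WT and at 6.81, 6.81 and 6.22 in Sfrp1_KO (1.65, SE 0.19, limma adjusted p = 0.0104; 0.056 without Sfrp1_KO replicate 2). Tns4 fell beside Igfbp4, which rose, from 10.56, 9.52 and 8.79 to 4.86, 5.02 and 5.06, around background. Tns1 differed by 0.77 (SE 0.14, limma adjusted p = 0.0404), a call that ended without WT replicate 1 or 2 or any 1 Sfrp1_KO array (0.0668 to 0.169), and Tns3 by -0.15 (SE 0.17, limma adjusted p = 0.825).

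Adgrl3, a latrophilin receptor gene near Igfbp7 on chromosome 5, rose by 0.98 (SE 0.14, limma adjusted p = 0.0184) where Igfbp7 stood lower, and its call ended without any 1 WT array or without Sfrp1_KO replicate 2 (0.0524 to 0.0922).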
